A study of Mus musculus with 7 samples.

Results

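The genes described here are the Serpina3 and Serpina1 copies on a list of 8 symbols, of which 7 had a row among the 17920 genes of the expression table: Serpina3f, Serpina3g, Serpina3i, Serpina3m, Serpina3n, Serpina1b and Serpina1d. Serpina3h, the other symbol, was not analysed here. The list was drawn up with the genotype difference of Serpina3i in these libraries known, so the differences between genotypes are given below as a description with no test. A mean of at least 1 FPKM (a unit that divides the fragments of a gene by its transcript length and by the mapped fragments of the library) over all libraries was reached by 6 of the 7. Serpina3m fell below it, and Serpina1d passed it through the libraries of the mutant alone.

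Serpins are protease inhibitors that present a reactive loop as bait, are cut by the protease, and then change shape and trap it in a covalent complex. In mice the single human genes for alpha-1-antitrypsin and alpha-1-antichymotrypsin are each represented by a cluster of close copies, Serpina1 and Serpina3. Serpina1 products, made mainly by hepatocytes, include inhibitors of neutrophil elastase. The copies of Serpina3 differ in their reactive loops: Serpina3g (Spi2A) acts inside leukocytes and inhibits lysosomal cathepsins, whereas Serpina3n is a secreted acute-phase protein that inhibits granzyme B and neutrophil proteases. Transcription of several copies responds to cytokines of the interleukin-6 family through STAT3, and some Serpina3 copies also respond to interferon gamma and NF-kB.

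The libraries came from spleens, labelled as splenocytes, of 8-week-old mice labelled C57BL/6, and both genotypes had received lipopolysaccharide (LPS, a bacterial cell wall component) at 20 mg/kg by intraperitoneal injection. GdX is the ubiquitin-like protein encoded by the X-linked gene Ubl4a, and the mutants are labelled GdX-/-, or GdX-/Y in the treatment text, and are called GdX-deficient here. At 90 min after LPS there were 2 GdX-deficient and 2 wild-type libraries, and at 6 h there were 1 GdX-deficient and 2 wild-type libraries. Every value for GdX-deficient spleen at 6 h therefore rests on a single library. How the GdX allele was made is not given in the sources used here, and no spleen without LPS was analysed. The design text counts as many mice as there are libraries.

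The estimated depth was even, at 19400000 to 22000000 fragments per library. Ubl4a itself overlapped between genotypes at 90 min, with means of 4.86 ± 1.17 FPKM in libraries labelled GdX-deficient and 6.56 ± 1.33 FPKM in wild type (SD, n = 2 each), and at 6 h the single GdX-deficient library had 10.6 FPKM and the wild-type pair 12.9 ± 1.51 FPKM (SD, n = 2). The level of Ubl4a alone thus does not bear out the genotype labels. Gm44504, an entry that overlaps Ubl4a, separated the labelled genotypes, with differences on the log2(FPKM + 1) scale of -2.73 at 90 min and -4.44 at 6 h. All 8 B-cell markers and all 8 T-cell markers were listed with a mean of at least 1 FPKM. Hepatocyte markers were near 0: 8 of 12 were listed, each with a mean under 1 FPKM, their sum lay between 1.59 and 2.84 FPKM, and albumin (Alb) did not exceed 0.16 FPKM in any library.

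The 7 genes lie on chromosome 12 in the order Serpina1b, Serpina1d, Serpina3f, Serpina3g, Serpina3i, Serpina3m, Serpina3n. The sequence before the annotated start of 4 of them is shown from RefSeq (build GRCm38.p6), because Serpina3f, Serpina3g and Serpina3i are neighbours that differed in their genotype pattern and Serpina1b shared the pattern of Serpina3i. Capitals mark matches to a STAT motif (TTCNNNGAA) and an NF-kB motif (GGGNNNTTCC), each searched on both strands; the matches do not overlap. The stretches are, for Serpina3f, chr12:104214294-104214543 on the plus strand, for Serpina3g chr12:104235897-104236146 on the plus strand, for Serpina3i chr12:104262872-104263044 on the plus strand and for Serpina1b chr12:103738190-103738439 on the minus strand.
Serpina3f: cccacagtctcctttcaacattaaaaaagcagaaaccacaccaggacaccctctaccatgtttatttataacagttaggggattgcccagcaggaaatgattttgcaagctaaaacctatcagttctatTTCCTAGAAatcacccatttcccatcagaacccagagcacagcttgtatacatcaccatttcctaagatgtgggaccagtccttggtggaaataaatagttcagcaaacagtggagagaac
Serpina3g: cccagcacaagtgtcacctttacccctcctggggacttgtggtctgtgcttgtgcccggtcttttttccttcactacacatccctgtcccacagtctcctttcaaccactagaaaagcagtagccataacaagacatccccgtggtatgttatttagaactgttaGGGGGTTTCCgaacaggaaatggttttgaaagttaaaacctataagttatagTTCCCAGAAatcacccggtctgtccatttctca
Serpina3i: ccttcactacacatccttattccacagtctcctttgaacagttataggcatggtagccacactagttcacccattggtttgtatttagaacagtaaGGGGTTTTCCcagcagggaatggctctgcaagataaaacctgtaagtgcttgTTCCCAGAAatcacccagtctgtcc
Serpina1b: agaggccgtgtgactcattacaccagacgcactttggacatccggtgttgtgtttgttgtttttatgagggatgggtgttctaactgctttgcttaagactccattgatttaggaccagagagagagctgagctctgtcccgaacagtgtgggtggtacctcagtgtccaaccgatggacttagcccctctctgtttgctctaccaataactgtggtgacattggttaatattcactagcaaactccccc

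A promoter window of 300 bases was found for 6 of the 7 genes. A STAT motif lay in the windows of Serpina3f, Serpina3g and Serpina3i, and in 8.3% of 32851 RefSeq windows of the same length. Serpina3g and Serpina3i carried the same 9 bases there, TTCCCAGAA, and Serpina3f carried TTCCTAGAA. An NF-kB motif lay in the windows of Serpina3g, Serpina3i and Serpina3n, against 5.56% of all windows. No interferon-stimulated response element (GAAANNGAAA) matched in any of the 6 windows, against 3.44% of all windows. Serpina1b and Serpina1d held neither the STAT nor the NF-kB motif, but both held gttaat, a partial site of the hepatocyte factor HNF1 (GTTAAT, 7.1% of all windows). The windows of Serpina1b and Serpina1d were 86.9% identical and those of Serpina3f and Serpina3i 67.9%. Serpina3i, which separated the genotypes, and Serpina3g, which overlapped at 90 min and was lower in the GdX-deficient library at 6 h, carried both motifs. Serpina1b and Serpina1d, which also separated the genotypes, carried neither. Whether these motifs bear on the levels was not tested.

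The copies are related closely enough that fragments can be hard to place. Among GENCODE transcripts, Serpina1b and Serpina1d were 96.6% identical, and 26.4% of the 100-base windows of Serpina1b and 29.3% of those of Serpina1d occurred unchanged in another gene. Serpina3i was more distinct: its closest relative among these genes was Serpina3f at 82.6% identity, and 2.33% of its 100-base windows occurred elsewhere. This share was 3.58% for Serpina3f, 4.64% for Serpina3g, 0.204% for Serpina3n and 6.09% for Serpina3m. With 50-base windows it was 15.4% for Serpina3i, with most of it shared with Serpina3h and Serpina3g, and 47.1% for Serpina1b. Whether fragments of Serpina3h were counted under Serpina3i or Serpina3g was not tested, and their levels could include such fragments. How the authors divided fragments between copies is not given in the sources used here, so the split within a cluster is uncertain and sums over each cluster are given as well.

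Serpina3g was the most abundant of the 7 genes in every library and Serpina3f the second. Serpina3g (Entrez gene 20715), the intracellular cathepsin inhibitor, stood at 417.33 and 285.36 FPKM in the GdX-deficient pair and 351.21 and 469.77 FPKM in the wild-type pair at 90 min, then at 394.96 FPKM in the single GdX-deficient library against 493.79 and 644.63 FPKM at 6 h. The genotypes overlapped at 90 min, and at 6 h the single GdX-deficient library lay below both wild-type libraries. On the log2(FPKM + 1) scale the difference, GdX-deficient minus wild type, was -0.23 at 90 min and -0.51 at 6 h. The first of these turned to 0.04 without replicate 2 of the GdX-deficient group, and the second was -0.20 after quantile normalization, -0.24 after rescaling without globin genes and -0.32 without wild-type replicate 2.

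Serpina3f (Entrez gene 238393), a copy whose protease target is less well described, stood at 118.25 and 57.94 FPKM in the GdX-deficient pair and 56.92 and 83.40 FPKM in the wild-type pair at 90 min, then at 135.67 FPKM against 127.82 and 188.33 FPKM at 6 h. The libraries of the genotypes overlapped at both times. The log2 differences were 0.26 and -0.19. The first was -0.25 without GdX-deficient replicate 1 and -0.01 without wild-type replicate 1, and the second was 0.06 after quantile normalization, 0.08 after rescaling without globin genes and 0.09 without wild-type replicate 2. No direction can be given for this gene.

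Serpina3n (Entrez gene 20716), the secreted acute-phase inhibitor, stood at 20.86 and 6.92 FPKM in the GdX-deficient pair and 14.77 and 23.01 FPKM in the wild-type pair at 90 min, then at 47.64 FPKM against 28.54 and 51.02 FPKM at 6 h. It too overlapped between genotypes at both times. The log2 differences of -0.56 and 0.31 became 0.17 without GdX-deficient replicate 2 at 90 min and -0.10 without wild-type replicate 1 at 6 h.

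**Figure D1:**
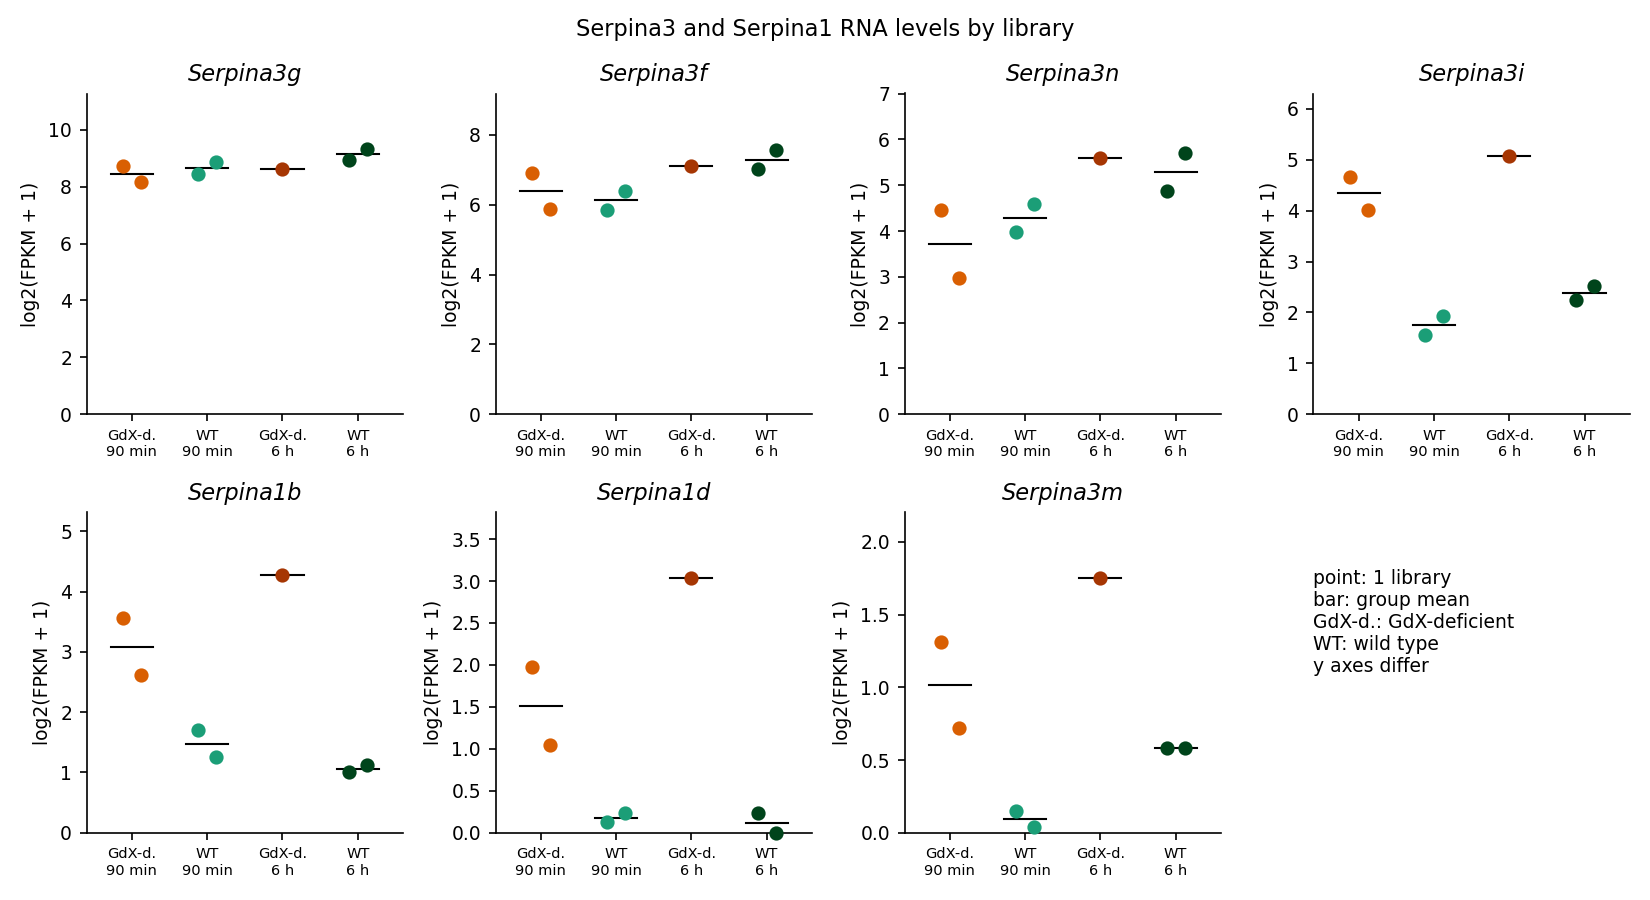
Level of each of the 7 genes as log2(FPKM + 1) in every library, grouped by genotype and time after LPS, with a separate y axis for each gene. Points are libraries and bars are group means; Serpina3i, Serpina1b, Serpina1d and Serpina3m lie higher in every GdX-deficient library than in the wild-type libraries of the same time, and Serpina3g, Serpina3f and Serpina3n overlap at 90 min.

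Serpina3i (Entrez gene 628900), for which the group was assembled, had the largest log2 difference of the 7 genes at 90 min with a pseudocount of 1; with a pseudocount of 0.1 its difference was 2.98 and that of Serpina1d 3.02. It stood at 24.41 and 15.24 FPKM in the GdX-deficient pair and 1.96 and 2.82 FPKM in the wild-type pair at 90 min, then at 32.74 FPKM against 3.73 and 4.75 FPKM at 6 h. Every GdX-deficient library was above every wild-type library, whichever times are compared. The ratio of the group means was 8.29 at 90 min and 7.72 at 6 h, and the log2 differences were 2.59 and 2.69. With time as a covariate the log2 difference was 2.63 (SE 0.25), and it is given with no p because the gene was chosen from this contrast.

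Serpina1b (Entrez gene 20701), an alpha-1-antitrypsin copy, followed the same order. It stood at 10.75 and 5.16 FPKM in the GdX-deficient pair and 2.25 and 1.38 FPKM in the wild-type pair at 90 min, then at 18.29 FPKM against 1.00 and 1.17 FPKM at 6 h. The ratio of means was 4.38 at 90 min and 16.9 at 6 h, with log2 differences of 1.61 and 3.21. The first was 1.15 without GdX-deficient replicate 1 and 2.08 without GdX-deficient replicate 2. At the estimated depth these levels came from about 305, 135, 63, 38, 499, 30 and 34 fragments in the order GdX-deficient 90 min, wild type 90 min, GdX-deficient 6 h and wild type 6 h. The low wild-type levels are thus the less precise ones.

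Serpina1d (Entrez gene 20703), another alpha-1-antitrypsin copy, stood at 2.92 and 1.06 FPKM in the GdX-deficient pair and 0.09 and 0.18 FPKM in the wild-type pair at 90 min, then at 7.19 FPKM against 0.18 and 0 FPKM at 6 h. Its wild-type levels correspond to about 5 fragments or fewer per library, so no ratio is given. The log2 differences were 1.33 and 2.91 with the pseudocount of 1, and the second was 5.45 with a pseudocount of 0.1. At 90 min the difference was 0.86 without GdX-deficient replicate 1 and 1.79 without GdX-deficient replicate 2. Serpina3m (Entrez gene 20717), a further antichymotrypsin copy, had the lowest mean of the 7, with 1.48 and 0.65 FPKM in the GdX-deficient pair and 0.11 and 0.03 FPKM in the wild-type pair at 90 min, then at 2.37 FPKM against 0.50 and 0.50 FPKM at 6 h. Both genes were thus low in wild type and above it in each GdX-deficient library.

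In all, 4 of the 7 genes (Serpina3i, Serpina1b, Serpina1d and Serpina3m) were higher in every GdX-deficient library than in the wild-type libraries of the same time, at both times, and none was lower at both. Over all 11378 genes with a mean of at least 1 FPKM, this held for 19% in the higher and 13% in the lower direction. Since the genotype values were known when the genes were chosen, nothing is read from this count. The count was also 4 after quantile normalization and after rescaling without globin genes. At 90 min all 7 were lower in GdX-deficient replicate 2 than in replicate 1, at 0.332 to 0.684 of its level, as were 30.6% of all tested genes. In both wild-type pairs replicate 2 was higher for Serpina3g, Serpina3f, Serpina3n and Serpina3i, by 1.27 to 1.79 times, whereas Serpina1b, Serpina1d and Serpina3m had no common direction.

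**Figure D2:**
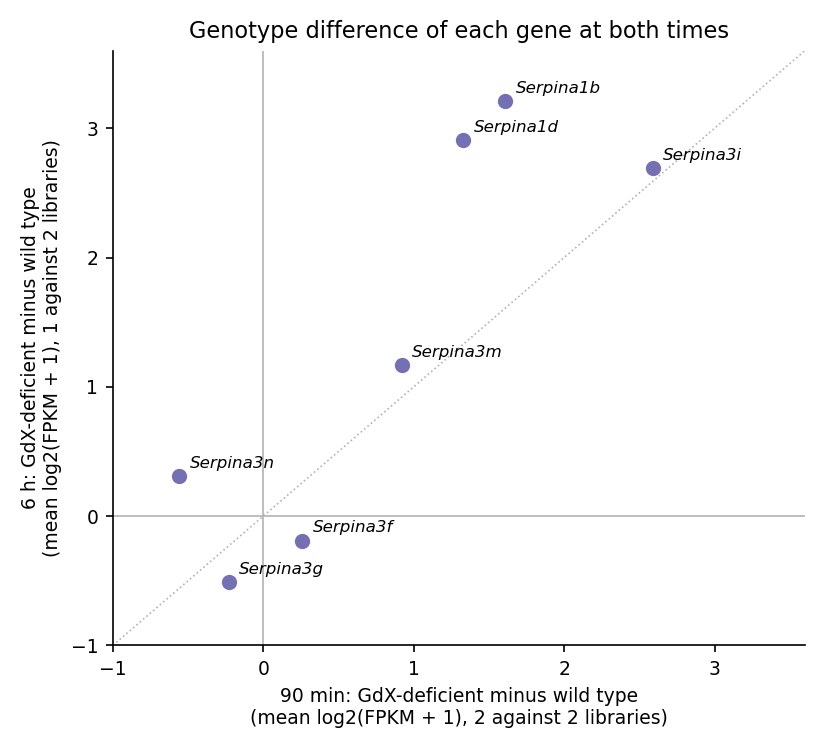
Difference between genotypes in mean log2(FPKM + 1) at 90 min (x axis, 2 against 2 libraries) and at 6 h (y axis, 1 against 2 libraries), 1 point per gene, with the dotted line marking equal differences. Serpina3i lies near the line at 2.59 and 2.69, Serpina1b and Serpina1d lie above it with larger differences at 6 h, and Serpina3g, Serpina3f and Serpina3n lie near the origin.

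Values of other cell types that moved with genotype stand beside these differences. In bulk spleen, fewer cells of a type and less RNA per cell cannot be told apart. The summed FPKM of 7 natural killer cell markers was 78.5 and 119 in GdX-deficient against 71.7 and 68.1 in wild-type libraries at 90 min, and 85.0 against 30.2 and 36.7 at 6 h, so it was higher in GdX-deficient spleen at both times. The share of globin genes in the FPKM sum was 30.9% and 23.5% against 22.3% and 19.2% at 90 min, and 13.6% against 9.46% and 7.73% at 6 h. That share counts every globin gene, whereas the red cell precursor list names only some of them. The summed markers of that list overlapped between genotypes at both times. They were 166353 and 113809 against 174877 and 130630 FPKM at 90 min, and 61195 against 73584 and 46787 FPKM at 6 h. With FPKM totals of 716738, 656279 and 596710 in the GdX-deficient libraries, their globin shares come to more than these sums. In wild type they do not. The overlap thus leaves out part of the globin RNA of the GdX-deficient libraries. The sum of 10 neutrophil markers reached 4823 in GdX-deficient replicate 2 at 90 min, the library in which all 7 genes were lower than in its partner, against 784 to 2537 elsewhere. The single GdX-deficient library at 6 h stood apart from both wild-type libraries in most marker sums. Its B-cell markers summed to 1949 FPKM against 535 and 604, T-cell markers to 326 against 183 and 161, and red pulp macrophage and monocyte markers to 769 against 380 and 393. It was also the higher one in endothelial (75.3 against 28.9 and 49.1), plasma cell (336 against 213 and 191), stromal (43.0 against 21.0 and 29.2), pancreas (5.33 against 3.42 and 2.64) and neutrophil markers (2537 against 1150 and 784). Stromal markers went the other way at 90 min, at 19.2 and 18.5 FPKM in GdX-deficient against 61.9 and 43.1 FPKM in wild-type libraries. The part of these marker sums in the differences was not tested. Hepatocyte markers, given above, were near 0 in all libraries, and their sum was lower in GdX-deficient (2.03 and 1.85) than in wild-type libraries (2.57 and 2.40) at 90 min. At 6 h the hepatocyte sum of the GdX-deficient library (1.77) lay between the wild-type values (2.84 and 1.59).

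The sum of the 5 Serpina3 genes, most of it Serpina3g and Serpina3f, overlapped between genotypes at 90 min but not at 6 h. It was 582.3 and 366.1 FPKM in the GdX-deficient pair and 425.0 and 579.0 FPKM in the wild-type pair at 90 min, which overlap, and 613.4 FPKM against 654.4 and 889.2 FPKM at 6 h, where the GdX-deficient library was below both. The log2 differences were -0.10 and -0.31, and the first turned to 0.11 after rescaling without globin genes, 0.23 without GdX-deficient replicate 2 and 0.12 without wild-type replicate 2. The second was -0.04 after rescaling, -0.09 without wild-type replicate 2 at 6 h and -0.54 without wild-type replicate 1 at 6 h. Adding the other listed Serpina3 copies, none of which reached a mean of 1 FPKM, left the log2 differences at -0.10 and -0.31.

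The sum of Serpina1b and Serpina1d was 13.67 and 6.22 FPKM in the GdX-deficient pair and 2.34 and 1.56 FPKM in the wild-type pair at 90 min, and 25.48 FPKM against 1.18 and 1.17 FPKM at 6 h. The ratio of means was 5.1 at 90 min and 21.7 at 6 h. On the log2 scale the 90 min difference of 1.82 was 1.30 without GdX-deficient replicate 1 and 2.33 without GdX-deficient replicate 2. With all 6 listed Serpina1 copies the sum was 14.48 and 7.01 against 3.74 and 3.03 FPKM at 90 min and 28.11 against 1.99 and 1.89 FPKM at 6 h, with ratios of 3.17 and 14.5. The GdX-deficient libraries were above wild type at both times in either sum.

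Within the clusters, the make-up of the FPKM values differed between genotypes more than the Serpina3 total did. The split of fragments between copies is uncertain, as given above. Whether the mouse groups differ in sequence besides GdX was not tested. Serpina3i made up 4.19% and 4.16% of the Serpina3 sum in the GdX-deficient pair and 0.461% and 0.487% in the wild-type pair at 90 min, and 5.34% against 0.57% and 0.534% at 6 h. These shares were close between replicates, although the levels of GdX-deficient replicates at 90 min were not. The ratio of Serpina3i to Serpina3f, its closest relative here, was 0.206 and 0.263 against 0.0344 and 0.0338 at 90 min, and 0.241 against 0.0292 and 0.0252 at 6 h. Serpina3g made up most of the sum in every library, but less in the GdX-deficient ones. Its share was 71.7% and 77.9% against 82.6% and 81.1% at 90 min, and 64.4% against 75.5% and 72.5% at 6 h. The ratio of Serpina3f to Serpina3g was 0.283 and 0.203 against 0.162 and 0.178 at 90 min, and 0.344 against 0.259 and 0.292 at 6 h.

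In the Serpina1 cluster, Serpina1b held 74.2% and 73.6% of the sum over 6 copies in the GdX-deficient pair and 60.2% and 45.5% in the wild-type pair at 90 min, and 65.1% against 50.3% and 61.9% at 6 h. Serpina1d held 20.2% and 15.1% against 2.41% and 5.94% at 90 min, and 25.6% against 9.05% and 0% at 6 h. The other 4 copies together held 5.59%, 11.3% and 9.36% in the GdX-deficient libraries and 37.4% to 48.5% in wild type. Their levels were low, with no value above 1.19 FPKM, so the wild-type shares rest on few fragments.

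**Figure D3:**
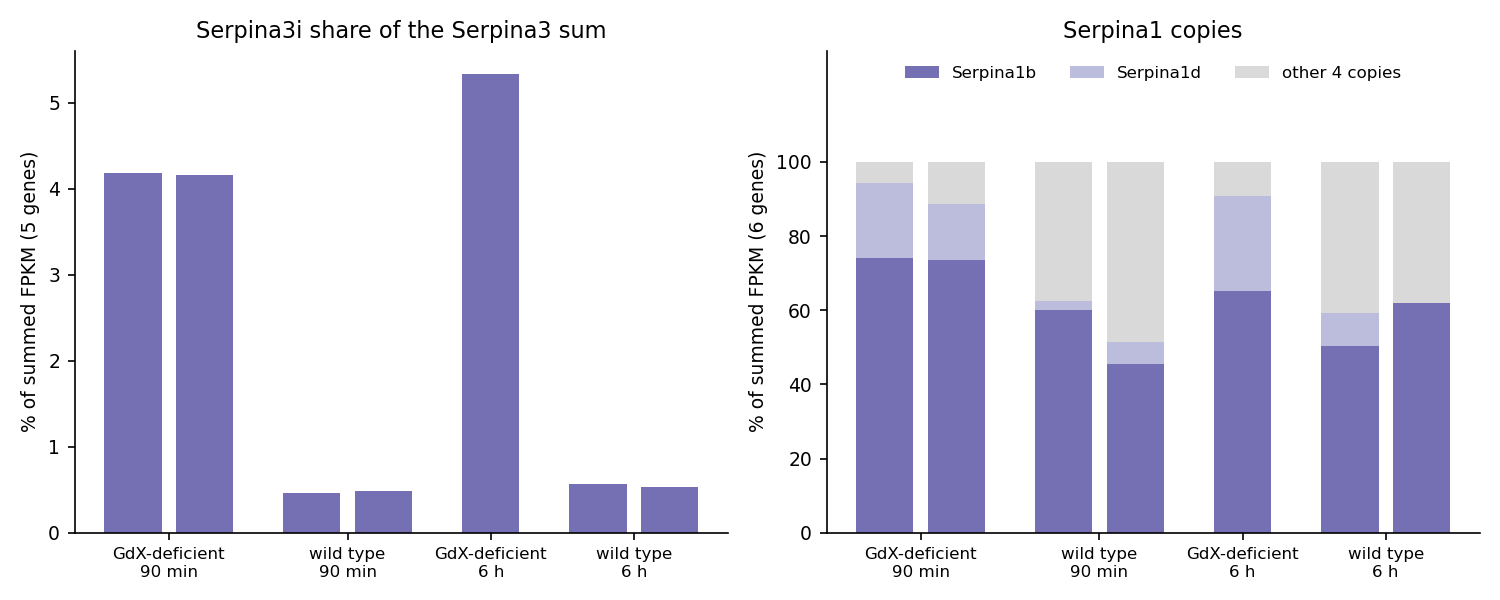
Left, Serpina3i as a percentage of the summed FPKM of 5 Serpina3 genes; right, Serpina1b, Serpina1d and the other 4 copies as percentages of the summed FPKM of 6 Serpina1 genes; 1 bar per library, in groups by genotype and time. Serpina3i lies between 4.16% and 5.34% in GdX-deficient libraries and between 0.461% and 0.57% in wild type, and the grey part for the other Serpina1 copies is larger in the wild-type bars.

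The course after LPS was compared in wild type, where both times have 2 libraries and where time is not the contrast known to have chosen the genes. The same wild-type libraries entered the genotype contrast. None of the 6 genes with a mean of at least 1 FPKM passed an adjusted p of 0.05 (limma, Benjamini-Hochberg over 11378 genes), and 1 of them, Serpina3f, had an unadjusted p under 0.05, as did 3262 of the 11378 genes. By the same test 10.7% of all genes passed, 4.39% higher and 6.32% lower at 6 h. Serpina3f was 2.25 times as high at 6 h as at 90 min by group means (70.2 ± 18.7 and 158 ± 42.8 FPKM, SD, n = 2 each), a log2 difference of 1.16 (SE 0.37, limma adjusted p = 0.0789). Serpina3n differed by 1.01 (SE 0.48, limma adjusted p = 0.2), with group means of 18.9 ± 5.83 and 39.8 ± 15.9 FPKM (SD, n = 2 each). In Serpina3f and Serpina3n both 6 h libraries were above both 90 min libraries.

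The other Serpina3 genes had smaller log2 differences in wild type, 0.47 for Serpina3g (limma adjusted p = 0.34) and 0.63 for Serpina3i (limma adjusted p = 0.24), again with both 6 h libraries above both 90 min libraries. That order held for 4 of the 6 genes and for 30.3% of all tested genes. Serpina1b had a difference of -0.42 (limma adjusted p = 0.487). Serpina1d had one of -0.06 (limma adjusted p = 0.92), but at 0 to 0.18 FPKM in wild type, and tested only because of its level in the mutant, it was too low for the test to bear on it. The differences of Serpina3f and Serpina3n depended on single libraries. Without wild-type replicate 1 at 6 h, the library with the lower level, they were 1.44 and 1.42, and without replicate 2 at 6 h 0.88 and 0.60. Without wild-type replicate 1 at 90 min they were 0.89 and 0.71, and without replicate 2 at 90 min 1.43 and 1.31. Replicate 2 was the higher one at both wild-type times for these genes, so leaving out 1 library adds a replicate difference to the time difference. The number of genes called overall was 1218, and it was 450 when wild-type replicate 1 at 90 min was left out and 550 when replicate 2 was.

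Marker sums also differed between the times in wild type. B-cell markers summed to 535 and 604 FPKM at 6 h against 1660 and 1588 FPKM at 90 min, and red pulp macrophage and monocyte markers to 380 and 393 against 728 and 811 FPKM. The share of globin genes was lower at 6 h, as given above. Their part in the time course of the serpins was not tested.

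In GdX-deficient spleen the single 6 h library was above both 90 min libraries for 6 of the 7 genes, all except Serpina3g, which lay between them. The same held for 56.8% of all tested genes, so this order is common in that library. The log2 differences between the times were 0.19 for Serpina3g, 0.71 for Serpina3f, 1.89 for Serpina3n, 0.73 for Serpina3i, 1.18 for Serpina1b, 1.53 for Serpina1d and 0.74 for Serpina3m. The time effects of the genotypes were compared in 1 fit, with the lone library assumed to vary like the others. None of 6 genes passed the adjusted threshold, which 0.0703% of all genes passed. With 1 library in an arm, this lack of calls does not show that the time courses were alike. Serpina1b (1.60, SE 0.57, limma adjusted p = 0.359) and Serpina1d (1.59, SE 0.49, limma adjusted p = 0.285) were the 2 with an unadjusted p under 0.05, which 1136 of the 11378 genes had. Both values rest on the genotype levels known when the genes were chosen, and no difference in time course is read from them. The interaction was 0.88 for Serpina3n, -0.45 for Serpina3f, -0.28 for Serpina3g and 0.10 for Serpina3i, with limma adjusted p-values of 0.811 to 0.983. Leaving out 1 library moved it between 0.14 and 1.61 for Serpina3n and between -0.55 and -0.01 for Serpina3g.

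The other genes of the pathway were taken as 4 lists. Proteases of the kinds that serpins inhibit came to 14 tested of 24. In wild type, 0 were higher and 2 lower at 6 h than at 90 min, where 4.39% and 6.32% of all tested genes passed in these directions, and the median log2 difference was -0.45 against 0.05 over all tested genes. The cathepsin Ctsh fell by 1.47 (limma adjusted p = 0.0121) and neutrophil elastase, Elane, fell by 1.40 (limma adjusted p = 0.021). Granzyme B, Gzmb, a target of Serpina3n, had a difference of 1.11 that did not pass (limma adjusted p = 0.0971). For other serpins, 11 of 42 were tested, with 0 higher and 4 lower and a median of -0.77. Serpinb2, the inhibitor of plasminogen activators, fell by 2.06 (limma adjusted p = 0.00423), Serpinh1, a collagen chaperone, fell by 1.24 (limma adjusted p = 0.0166), and Serpinb1a, an inhibitor of neutrophil proteases, fell by 1.26 (limma adjusted p = 0.0213). None of these 11 was called higher, and Serpinb6b was the remaining lower one (-1.30, limma adjusted p = 0.0305).

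Of the acute-phase proteins, 9 of 24 were tested, and in wild type 5 of the 9 were higher at 6 h, 0 lower and 4 did not pass, with a median of 1.54. Saa3, a serum amyloid A made by macrophages, rose by 3.65 (limma adjusted p = 0.00221), from 120.25 and 109.27 FPKM at 90 min to 2040.36 and 1032.77 FPKM at 6 h. Lcn2, which binds bacterial siderophores, rose by 2.30 (limma adjusted p = 0.00197), and haptoglobin, Hp, by 1.64 (limma adjusted p = 0.011). Lrg1 and Orm1 were the other 2. Of the 23 inducing signals and factors, all of them tested, 1 was higher and 5 were lower, with a median of -0.63. Interferon gamma, Ifng, rose by 1.89 (limma adjusted p = 0.0167). The transcription factor Cebpd fell by 1.67 (limma adjusted p = 0.0141), Il1b fell by 1.84 (limma adjusted p = 0.0175) and the oncostatin M receptor, Osmr, fell by 1.49 (limma adjusted p = 0.0238). Il6 and its feedback inhibitor Socs3 were also lower.

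**Figure D4:**
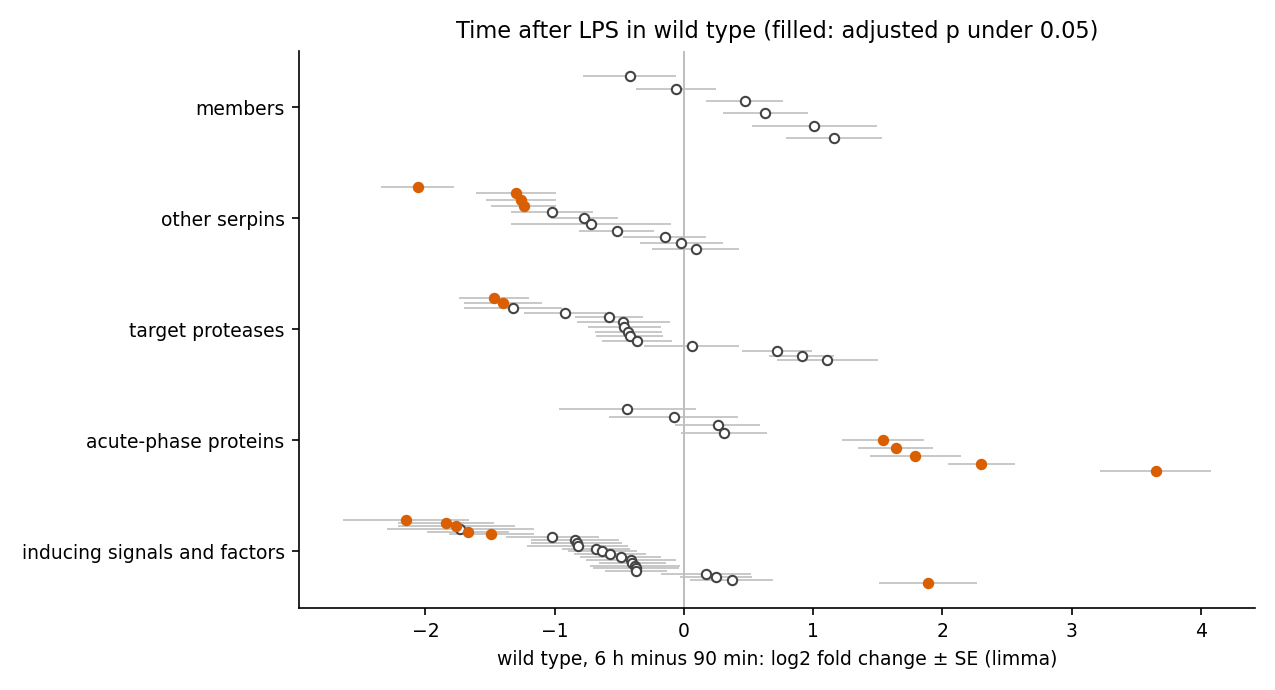
Log2 difference between 6 h and 90 min after LPS in wild type (x axis, with its standard error, limma), 1 point per tested gene, for the Serpina3 and Serpina1 genes (members) and 4 lists; filled points have an adjusted p under 0.05. All 6 members are unfilled, 4 other serpins are filled on the lower side, and 5 acute-phase proteins are filled on the higher side, up to 3.65 for Saa3.

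Between genotypes, with time as a covariate, no gene of these lists passed the adjusted threshold in limma, which 0.0439% of all genes passed. At an unadjusted p under 0.05 there were 0 target proteases, 3 acute-phase proteins and 5 inducing signals, against 3071 of all 11378 genes. The medians were -0.03, -0.49 and -0.20 in that order and -0.15 for the other serpins, against 0.16 over all tested genes. The gene with the smallest p on each of these 3 lists was lower in GdX-deficient spleen: the cathepsin Ctsl (-0.59, limma adjusted p = 0.192), Saa3 (-1.89, limma adjusted p = 0.101) and Il6 (-2.68, limma adjusted p = 0.0915). Il6 stood at 72.15 and 20.98 FPKM in the GdX-deficient pair and 184.66 and 120.27 FPKM in the wild-type pair at 90 min, then at 1.35 against 34.69 and 31.10 FPKM at 6 h. The number of genes called in this comparison depended on single libraries, being 5 with all, 2 without the GdX-deficient 6 h library, 1674 without GdX-deficient replicate 1 and 242 without wild-type replicate 2 at 90 min, and 9 without wild-type replicate 2 at 6 h.

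In the difference of the time effect between genotypes, no gene of the lists passed either, with 6 other serpins, 5 target proteases, 4 acute-phase proteins and 3 inducing signals at an unadjusted p under 0.05, against 1136 of all 11378 genes. This comparison too has a single library in the GdX-deficient 6 h arm, so neither these values nor the lack of calls has a replicate check there. The genes with the smallest p were Serpinh1 (2.71, limma adjusted p = 0.0591), Ctsh (1.76, limma adjusted p = 0.167), Orm1 (-1.95, limma adjusted p = 0.192) and Ifng (-4.03, limma adjusted p = 0.0626). Ifng was 35.79 and 42.32 FPKM in wild type at 6 h and 1.99 FPKM in the GdX-deficient library.

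The genes whose levels followed each of the 6 more abundant genes most closely over the 7 libraries are given as a description, since depth, cell make-up and genotype are shared by all points. For Serpina3g they were Car13 (Pearson r of 0.988), Naf1 (0.983) and Polr1b (0.983). Serpina3f went with Gzmb (0.97), Nos2 (0.968) and Xaf1 (0.967), and Serpina3n with Mvp (0.987), Stra6 (0.986) and Nek6 (0.984). Serpina3i, Serpina1b and Serpina1d had a gene in common, Cd200r4, at 0.971, 0.954 and 0.984. It was 2.07 and 1.55 FPKM in the GdX-deficient pair and 0.94 and 1.08 FPKM in the wild-type pair at 90 min, and 2.60 against 1.10 and 1.15 FPKM at 6 h. The other neighbours were Inppl1 and Wipi1 (0.935 each) for Serpina3i, Serpina1d (0.971) and H2-Q9 (0.923) for Serpina1b, and Serpina1b (0.971) and Serpina3i (0.926) for Serpina1d.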

How the data were processed

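Spleen RNA of 7 mice was sequenced on a BGISEQ-500 instrument after oligo dT selection or rRNA depletion, per the labels' protocols. The submitters' processing notes name HISAT, HISAT2 2.0.4, Bowtie2, RSEM and GRCm38.p5, without role or order. FPKM values, a column for each library per the file headers, are what the authors deposited; the counts behind them were not used here. The genes and lists were chosen with earlier results of these data known.

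Values were converted to log2(FPKM + 1), which understates the change of low genes, and limma 3.58.1 under R 4.3.3 was run on the 11378 genes with a mean of at least 1 FPKM (empirical Bayes with a trend, two-sided, Benjamini-Hochberg, threshold 0.05). Wild-type times and the genotype-by-time interaction came from a fit of 4 groups, and genotype from an additive fit with time. Depth was estimated from the steps of low FPKM values, with 75 to 112 genes per library; fragment numbers are estimates and cover counting error only. Named beside the Serpina3 and Serpina1 genes were Ubl4a, Gm44504, up to 3 higher and 3 lower list genes with the smallest p past the threshold, or the 1 with the smallest p where none passed (1 such result is not reported here), and the 3 genes with the highest Pearson r (predicted genes and antigen receptor segments left out). Gzmb in the time comparison, Serpinb6b, Lrg1, Orm1, Il6 and Socs3 there, and the albumin marker were named after their values were seen. Promoter windows (250 bases before to 50 after a start) came from RefSeq and transcripts from GENCODE. The test was first checked on simulated data. Alternatives were another pseudocount and filter, quantile normalization, rescaling without globin genes, a replicate block and leaving out each library.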

Additional observations from a re-analysis of the deposited data

How the results depend on the processing

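The position of Serpina3i, Serpina1b, Serpina1d and Serpina3m above wild type at both times held after quantile normalization and after rescaling without globin genes, and describes the values with which the genes were chosen; the other genotype differences were small and several changed sign. The number of genes called with time in wild type, 1218, was 635 with no filter on low values, 708 after rescaling without globin genes and 450 to 1774 when 1 library was left out. For genotype it was 5, and 2 to 1674 when 1 library was left out. For the interaction it was 8, and 0 with a pseudocount of 0.1, 3 with no filter, 0 with a mean of at least 5 FPKM, 4 after quantile normalization, 0 after rescaling without globin genes and 0 to 238 when 1 library was left out (0 without either GdX-deficient 90 min library, 19 and 37 without wild-type replicate 1 or 2 at 90 min, 169 and 238 without those at 6 h); it could not be fitted without the GdX-deficient 6 h library. The cause was not tested. The median over all tested genes of the genotype difference was 0.16, -0.01 after quantile normalization and 0.36 after rescaling.

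Replicate numbers were tried as a replicate block, which gave 2345 calls for time in wild type, 12 for genotype and 80 for the interaction. The differences between same-numbered replicates correlated at 0.768 between the wild-type times, 0.08 between GdX-deficient 90 min and wild type 6 h, and -0.12 between the genotypes at 90 min. The numbers thus went together in wild type but not across genotypes, and the main fits did not pair the libraries. With the block, none of the 6 genes passed for time in wild type. The limma adjusted p was 0.0662 for Serpina3f, 0.173 for Serpina3n, 0.158 for Serpina3i and 0.291 to 0.889 for the others.

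Among the genes, the interaction of Serpina3i was -0.05 with a pseudocount of 0.1, -0.16 after quantile normalization and -0.22 to 0.42 when 1 library was left out, and that of Serpina3f was then -0.96 to 0.05. The wild-type time difference of Serpina1d was 0.15 after quantile normalization and -0.18 to 0.06 when 1 library was left out. At 90 min the genotype differences with 1 library left out were -0.25 to 0.77 for Serpina3f, -0.51 to 0.04 for Serpina3g and -1.30 to 0.17 for Serpina3n. At 6 h they were -0.47 to 0.09 for Serpina3f, which was 0.06 after quantile normalization and 0.08 after rescaling, and -0.10 to 0.72 for Serpina3n. The 90 min difference of the Serpina3 sum was 0.11 after rescaling and -0.44 to 0.23 with 1 library left out, and that of the Serpina1 sum, 1.82, was 1.35 with every listed copy and 1.30 to 2.33 with 1 library left out.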

Other observations

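Genes beside the clusters on chromosome 12 were looked at after the values above were seen. Of the 20 nearest tested genes that are not serpins, 10 on each side, 3 were higher in the GdX-deficient libraries at both times without overlap (Otub2, Syne3 and LOC108167963), 3 were lower (Moap1, Tmem251 and Vrk1) and 14 did neither, against 19% and 13% of all tested genes. Otub2, a deubiquitinase, stood at 7.58 and 9.24 FPKM in the GdX-deficient pair and 3.50 and 4.29 FPKM in the wild-type pair at 90 min, then at 6.57 against 2.03 and 2.96 FPKM at 6 h. Asb2, a subunit of a ubiquitin ligase, stood at 37.5 FPKM in the GdX-deficient 6 h library and between 2.82 and 9.30 FPKM in the others.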
